A study of Mus musculus with 4 samples.

Results

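Genes of fatty acid synthesis and desaturation were followed in liver of mice that make the SV40 tumour antigens. The set held 10 genes, Acly, Slc25a1, Me1, Fasn, Scd1, Scd2, Elovl5, Elovl6, Srebf1 and Pparg. Every probe set whose only gene symbol in the platform annotation was one of these was taken, which gave 15 of the 10833 probe sets with a single symbol (10 of 8251 genes). Of the genes, 4 had several probe sets.

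Liver RNA was prepared from B6SJL hybrid males aged 50 to 66 days and was hybridised to Affymetrix MG_U74Av2 arrays. All mice ate a diet of 65% protein and 10% carbohydrate without restriction for 4 weeks from weaning. PEPCK-TAg mice carry a transgene for the large T and small t antigens, named for the promoter of the phosphoenolpyruvate carboxykinase gene (Pck1) that drives it, and wild-type mice carry none. Each group had 2 arrays, described by the submitters as duplicate measurements. Nothing in the labels ties the duplicates to different mice, so the p-values here reflect the spread between arrays, which may be technical. The liver was measured as a whole, so that fewer cells of a type and less RNA per cell cannot be told apart.

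Hepatocytes make fatty acids from citrate. The citrate carrier Slc25a1 exports it from mitochondria, ATP citrate lyase (Acly) cleaves it to acetyl-CoA, and malic enzyme (Me1) supplies NADPH. Fatty acid synthase (Fasn) assembles palmitate, Elovl6 lengthens it to stearate, Elovl5 lengthens polyunsaturated chains, and stearoyl-CoA desaturases introduce the first double bond. Scd1 is the main desaturase of adult mouse liver, whereas its paralogue Scd2 is known from brain, from many dividing cells and from fetal and newborn liver. Srebf1 encodes SREBP-1, the transcription factor through which insulin raises these enzymes. Pparg encodes the nuclear receptor that drives fat storage in adipocytes, where it is abundant, and it is low in normal hepatocytes. Diets poor in carbohydrate are known to lower hepatic lipogenesis, and both groups ate such a diet.

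Of the 10 genes, 4 were lower in PEPCK-TAg liver and Scd2 was higher. Pparg was also called higher, but it entered the test only through the PEPCK-TAg arrays. Elovl6 fell 4.69-fold, Elovl5 2.94-fold, Scd1 2.64-fold and the citrate carrier Slc25a1 2.63-fold by their brightest probe sets, whereas Scd2 rose 16.7-fold. Acly, Me1, Fasn and Srebf1 did not pass the test. In limma's moderated test, with a Benjamini-Hochberg adjusted p under 0.05 over the 7877 probe sets tested, those above a filter level of 41.3 on at least 2 arrays, 3 of the 14 member probe sets tested were called higher and 6 lower. With no filter, or with the fluidics station as a block (PEPCK-TAg 2 alone was run on another station), limma called none of them: Scd2 had an adjusted p of 0.0506 and 0.129 and Pparg of 0.177 and 0.248, and 3 higher and 5 or 4 lower stayed under an unadjusted p of 0.05. The station block in effect sets PEPCK-TAg 2 aside, so it cannot tell the station from that array. In the fit without a block, 9.10% of all probe sets tested were called higher and 3.40% lower. Groups without overlap were seen for 12 of the 14 (3 higher and 9 lower), and over all probe sets tested 33.3% were higher without overlap and 26.5% lower. The median signal was 66.6 to 68.4 in wild-type and 77.05 to 84.7 in PEPCK-TAg liver, and the ratio of 3' to 5' actin control signals, a sign of RNA quality, was 3.41 to 4.33 and 3.14 to 3.82.

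**Figure D1:**
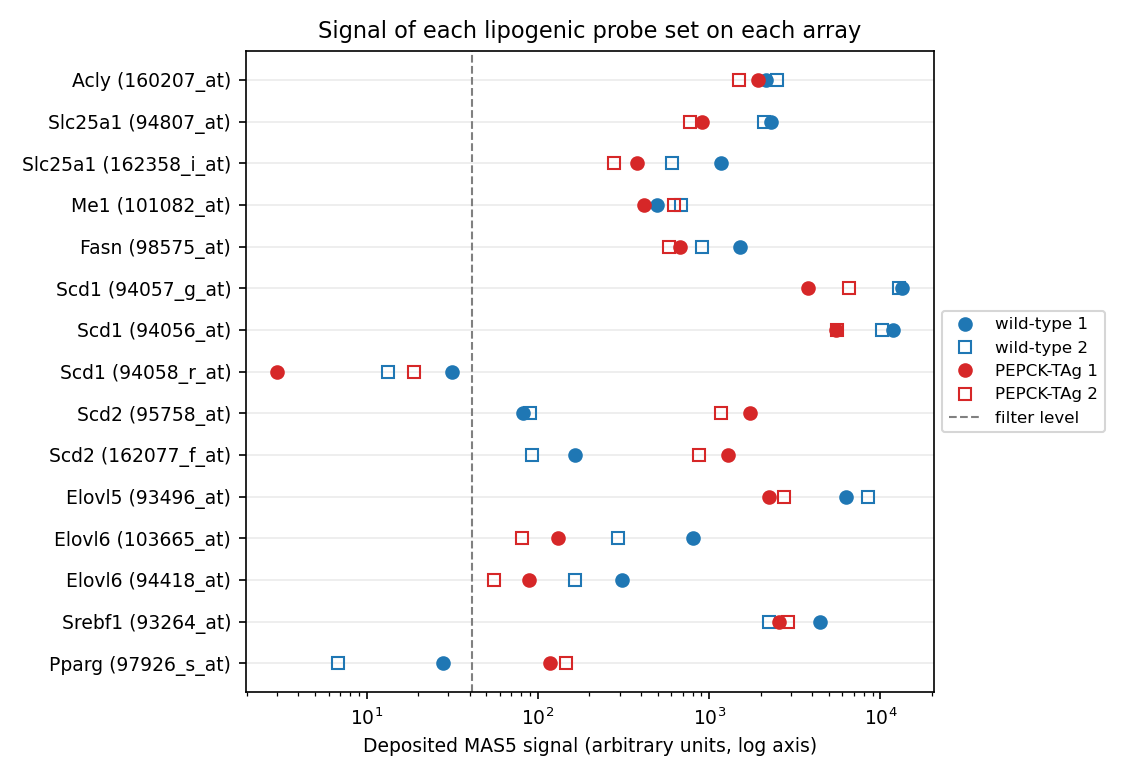
Deposited MAS5 signal (arbitrary units, log axis) of the 15 member probe sets on the 2 wild-type (blue) and 2 PEPCK-TAg (red) arrays; the dashed line is the filter level of 41.3. The PEPCK-TAg points lie right of the wild-type points for Scd2 and Pparg and left of them for Slc25a1, Fasn, Elovl5, Elovl6, Acly and the bright Scd1 probe sets.

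Among the genes that supply the substrates, Slc25a1 had signals of 2302.3 and 2103.5 in the wild-type pair and 907.6 and 771.9 in the PEPCK-TAg pair. Both PEPCK-TAg arrays lay below both wild-type arrays, and the log2 difference (PEPCK-TAg minus wild-type) was -1.40 ± 0.23 SE (limma adjusted p = 0.0115). All differences here compare groups of n = 2 arrays, with p adjusted in the same limma fit. A further Slc25a1 probe set, of the class Affymetrix marks as having fewer probes than usual, read 1173.5 and 605.9 against 378.0 and 276.4. Its groups did not overlap either, and its difference of -1.39 ± 0.37 SE missed the threshold (adjusted p = 0.0564). Acly read 2141.5 and 2482.1 against 1936.4 and 1486.2. The groups did not overlap, but the difference of -0.44 ± 0.24 SE did not pass (adjusted p = 0.268, 95% interval -1.02 to 0.13). Me1 read 498.6 and 682.2 against 416.3 and 625.9, with overlapping groups and a difference of -0.19 ± 0.30 SE (adjusted p = 0.701, 95% interval -0.92 to 0.53). The interval for Me1 leaves room for differences in either direction.

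Fasn read 1515.8 and 911.8 in the wild-type pair, against 672.8 and 580.8 with the transgene. The groups did not overlap, but the wild-type arrays themselves lay far apart, and the difference of -0.91 ± 0.30 SE did not pass (adjusted p = 0.101). Without wild-type 2 it was -1.28 and passed (adjusted p = 0.00826), and without wild-type 1 it was -0.55.

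Both elongases fell. Elovl5 read 6285.3 and 8416.7 against 2246.2 and 2729.5, a difference of -1.56 ± 0.25 SE (adjusted p = 0.0114) with a wide gap between the groups. Elovl6 read 802.6 and 292.1 against 131.8 and 80.9 on its brighter probe set, a difference of -2.23 ± 0.51 SE (adjusted p = 0.0366). Its further probe set read 311.8 and 165.1 against 89.2 and 55.2, a difference of -1.69 ± 0.42 SE (adjusted p = 0.0457). On both Elovl6 probe sets wild-type 1 was the highest array and the groups did not overlap. The size for Elovl6 rests on that array: the brighter probe set gave -1.50 when wild-type 1 was left out and -2.96 when wild-type 2 was.

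Scd1 was measured by 2 bright probe sets and 1 dim one. The first read 13428.2 and 12749.0 in the wild-type pair and 3764.5 and 6548.5 in the PEPCK-TAg pair, a difference of -1.40 ± 0.30 SE (adjusted p = 0.0310). The second read 11792.0 and 10272.5 against 5499.2 and 5584.4, a difference of -0.99 ± 0.21 SE (adjusted p = 0.0309). On both, the PEPCK-TAg arrays lay below the wild-type arrays, and the spread within PEPCK-TAg was wide on the first and narrow on the second. The dim probe set, of the class with relaxed probe selection rules, read 31.6 and 13.4 against 3.0 and 19.0, below the filter level, and was not tested. Signals as high as those of the bright probe sets can approach saturation, which shrinks a fold change. Under quantile normalization, which forces the bright ends of the 4 arrays to match, the differences were -0.92 and -0.47 and neither passed (adjusted p = 0.0564 and 0.136). The second probe set also lost its call when any 1 array was left out, with differences of -1.09 to -0.89.

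Over the 7 enzyme and carrier genes other than Scd2, each by its brightest probe set, 4 fell, none rose and the median log2 difference was -1.40, where the median over all 5954 genes tested was 0.072 and 3.34% of these genes were called lower. Quantile normalization gave the 7 genes a median of -0.92 and shifted the median of all probe sets tested from 0.051 to -0.088. The calls of the falls rested on both PEPCK-TAg arrays: of the 6 probe sets called lower, none was called without PEPCK-TAg 1 (7 member probe sets at an unadjusted limma p under 0.05) and 1 without PEPCK-TAg 2, settings that left 60 and 39 falls among all probe sets. Their log2 differences stayed between -2.96 and -0.89 over the 4 settings that leave out an array. Hepatocyte markers stood beside these falls. All 18 hepatocyte markers with a probe set passed the filter, and of these 3 fell (Tdo2, Ttr and Tat) and none rose, with a median of -0.43, and their summed signal was 143437.8 and 149791.9 in the wild-type pair and 88561.9 and 110268.0 in the PEPCK-TAg pair. Medians were lower still for lymphocyte markers (-0.61) and for stellate and fibroblast markers (-0.57). The part of the hepatocyte markers in the fall of the lipogenic enzymes was not tested.

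**Figure D2:**
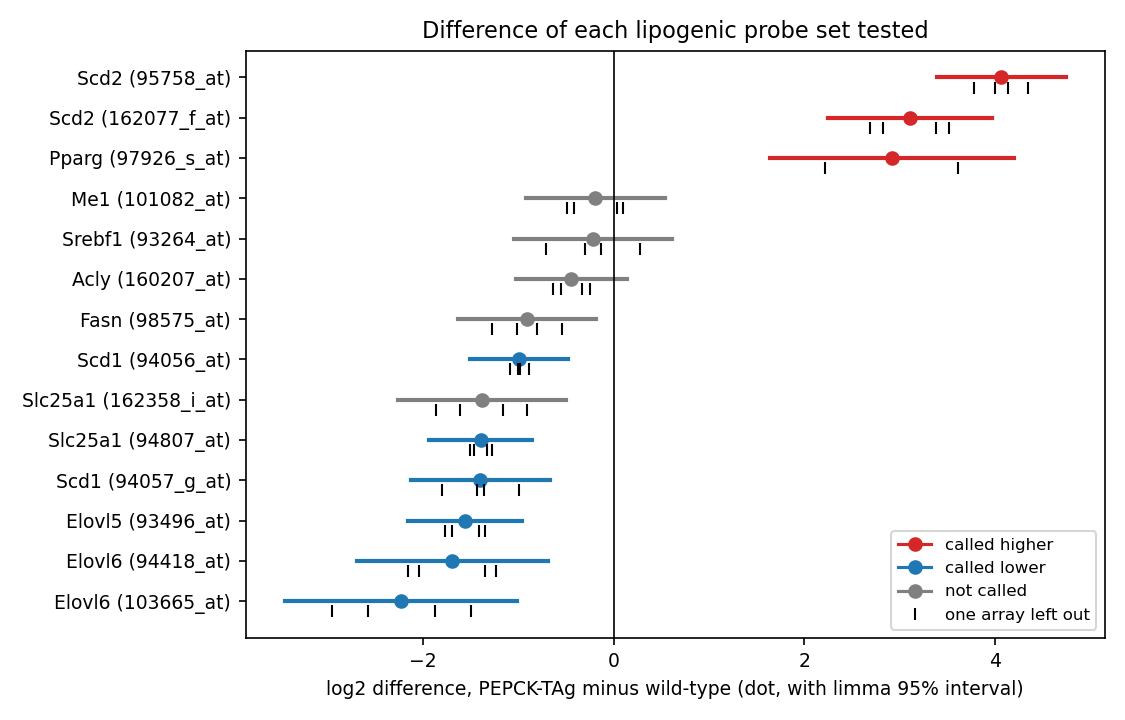
Log2 difference (PEPCK-TAg minus wild-type) of the 14 member probe sets tested, as dots with limma's 95% interval and ticks for the value with 1 array left out. Scd2 and Pparg stand between 2.92 and 4.06, and the called enzymes between -2.23 and -0.99.

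The promoters of 4 enzyme genes are shown because 3 of them fell together and Fasn is a textbook target of the factors searched for. The sequences are the 250 bases before the RefSeq transcription start (GRCm38.p6), read 5′ to 3′ on the gene's strand, with motif matches in capitals. The RefSeq table held 13 start sites of 8 members, and Scd1 and Scd2 were not among them. Searched on both strands were the E-box CACGTG, bound by USF and similar factors, the sterol element TCACNCCAC, bound by SREBPs, the CCAAT box, bound by NF-Y, and the GC box GGGCGG, bound by Sp1. Slc25a1 (minus strand) lies at chr16:17928220-17928469, Elovl5 (plus strand) at chr9:77917115-77917364, Elovl6 (plus strand) at chr3:129532136-129532385 and Fasn (minus strand) at chr11:120824548-120824797.
Slc25a1: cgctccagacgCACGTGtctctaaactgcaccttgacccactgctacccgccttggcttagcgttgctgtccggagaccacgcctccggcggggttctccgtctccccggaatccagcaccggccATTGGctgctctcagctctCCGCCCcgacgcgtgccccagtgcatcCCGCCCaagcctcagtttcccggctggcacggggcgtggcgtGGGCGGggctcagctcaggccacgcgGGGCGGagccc
Elovl5: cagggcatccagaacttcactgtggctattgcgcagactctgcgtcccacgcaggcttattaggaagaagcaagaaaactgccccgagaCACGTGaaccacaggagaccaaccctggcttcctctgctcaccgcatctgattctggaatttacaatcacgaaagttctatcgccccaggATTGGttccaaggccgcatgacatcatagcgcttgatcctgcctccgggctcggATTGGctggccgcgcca
Elovl6: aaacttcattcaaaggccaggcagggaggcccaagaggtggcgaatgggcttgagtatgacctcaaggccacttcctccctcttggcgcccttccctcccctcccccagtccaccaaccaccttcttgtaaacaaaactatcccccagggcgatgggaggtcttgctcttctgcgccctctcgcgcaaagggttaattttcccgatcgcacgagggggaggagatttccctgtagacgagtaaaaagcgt
Fasn: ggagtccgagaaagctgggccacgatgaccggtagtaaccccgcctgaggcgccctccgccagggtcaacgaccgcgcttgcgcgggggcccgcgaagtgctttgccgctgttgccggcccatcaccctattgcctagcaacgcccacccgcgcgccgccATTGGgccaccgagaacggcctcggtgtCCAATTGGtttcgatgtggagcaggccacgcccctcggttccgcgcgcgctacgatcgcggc
The Slc25a1 window held 1 E-box, starting 239 bases before the start site, 1 CCAAT box and 4 GC boxes. That of Elovl5 held 1 E-box, 161 bases before the start, and 2 CCAAT boxes. The Fasn window held 3 CCAAT boxes, of which a pair on opposite strands overlap. The window of Elovl6, whose log2 difference between the groups was -2.23 on its brighter probe set, held none of the 4 motifs. Over the 13 member windows the E-box was found in 2, the sterol element in 0, the CCAAT box in 8 and the GC box in 7. Of all 32851 windows of that length in the table, 6.02% held the E-box, 1.05% the sterol element, 33.8% the CCAAT box and 32.7% the GC box. A match is an exact match of letters only. A variant form of an element inside the window, or any element outside it, would not be seen.

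The transcription factor genes differed. Srebf1 read 4417.3 and 2236.8 in the wild-type pair, against 2546.6 and 2873.0 with the transgene. Both PEPCK-TAg values lay between the wild-type values, and the difference was -0.22 ± 0.34 SE (adjusted p = 0.704, 95% interval -1.04 to 0.61). Its sign turned without wild-type 1 (0.27) and under quantile normalization (0.069). The interval holds a fall as large as that of Scd1's second bright probe set, so a lack of change was not shown.

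Pparg read 28.0 and 6.8 in the wild-type pair, below the filter level of 41.3, and 117.1 and 145.1 in the PEPCK-TAg pair. Only the PEPCK-TAg arrays lay above that level, so the probe set was tested because of the group in which it was high. Signals under 10.6 were raised to that floor before log2 was taken, which applied to wild-type 2. The difference was 2.92 ± 0.53 SE (adjusted p = 0.0176), and its size depends on the floor. It was 1.66 with the floor at the 40th percentile of the signals. The 2 groups did not overlap. Without either PEPCK-TAg array, or with the filter at the 60th percentile, the probe set fell out of the test. Leaving out wild-type 1 gave 3.61 and leaving out wild-type 2, the array at the floor, gave 2.22, and it passed in both. It was the only Pparg probe set, of the class that can match several related transcripts.

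Scd2 showed the largest difference among the members. Its brighter probe set read 81.5 and 89.6 in the wild-type pair and 1737.7 and 1176.4 in the PEPCK-TAg pair, a difference of 4.06 ± 0.28 SE (adjusted p = 0.000927). This was rank 57 from the largest rise among the 7877 probe sets tested. The other, of the class marked as a sequence family, read 163.8 and 92.8 against 1287.1 and 873.2, a difference of 3.10 ± 0.36 SE (adjusted p = 0.00376), or 8.59-fold. Both had a wide gap between the groups and were called when any 1 array was left out, with differences of 2.69 to 4.34. In those fits the lone array of a group is assumed to vary like the other group. Scd1 and Scd2 are near relatives, and hybridisation of Scd1 RNA to Scd2 probes or the reverse was not tested.

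The paralogous desaturases moved in opposite directions. Taken within each array, log2 Scd2 minus log2 Scd1 was -7.36 and -7.15 in the wild-type pair and -1.12 and -2.48 in the PEPCK-TAg pair, a change of 5.46 in the ratio. The levels of different probe sets are not comparable, and only the change of this ratio has meaning. The 2 groups did not overlap, but an exact permutation test of 2 against 2 arrays, two-sided, cannot go below its value of p = 0.333 here. Log2 Pparg minus log2 Srebf1 was -7.30 and -7.72 in the wild-type pair and -4.44 and -4.31 in the PEPCK-TAg pair, a change of 3.14 (exact permutation p = 0.333, the smallest possible). The value of -7.72 is set by the floor, and the change was 1.88 with the floor at the 40th percentile. The 95% interval of the difference was 3.39 to 4.74 for the brighter probe set of Scd2 and -2.13 to -0.67 for that of Scd1.

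Of 13 known targets of Pparg and lipid droplet genes tested (27 listed, 22 on the array), 1 was called higher (Lpl) and none lower, with a median of -0.46, where 9.56% of all genes tested were called higher. At an unadjusted limma p under 0.05, 2 were higher and 5 lower, against 1197 higher and 656 lower of all 5954 genes tested. Without overlap, 2 were higher and 7 lower, where 2064 of all 5954 genes tested were higher and 1561 (26.2%) lower. Lpl, the lipoprotein lipase, read 82.3 and 81.8 against 2226.4 and 2186.6, a difference of 4.75 ± 0.23 SE (adjusted p = 0.000449). Plin2, which coats lipid droplets, gave -0.99 ± 0.35 SE (adjusted p = 0.117), and Fabp4, the fatty acid binding protein of adipocytes and macrophages, -0.0070 ± 0.41 SE (adjusted p = 0.993). The fatty acid transporter Cd36 read 6.3 and 11.9 against 28.5 and 26.2, below the filter level on every array. Cebpa, which works with Pparg in adipocytes, gave -0.88 ± 0.28 SE (adjusted p = 0.0932), and Rxra, the partner of Pparg in its dimer, 0.14 ± 0.24 SE (adjusted p = 0.720). Pck1, whose promoter drives the transgene, read 3383.0 and 3311.1 against 1316.3 and 2481.9 (adjusted p = 0.127). Cebpa and Pck1 were not among the genes fixed to be named and were chosen after their values were seen, as were Rxra, Cd5l, Lgals3, Lyz2, Cd14, Ctss, Csf1r, Clec4f, Cd68, Adgre1 and Adipoq.

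Of 13 further genes of synthesis, desaturation and elongation tested (31 listed, 14 on the array under their own symbol), 4 fell and none rose, with a median of -0.67, and 9 were lower without overlap. Over all genes tested, 3.34% were called lower and 26.2% were lower without overlap. Thrsp (Spot 14), a lipogenic regulator of liver, read 3772.1 and 1336.9 against 229.0 and 432.2, a difference of -2.84 ± 0.53 SE (adjusted p = 0.0189). Its relative Mid1ip1, which promotes the polymerisation of acetyl-CoA carboxylase, gave -1.33 ± 0.22 SE (adjusted p = 0.0125). The desaturase Fads1, of the polyunsaturated pathway that Elovl5 serves, gave -1.10 ± 0.24 SE (adjusted p = 0.0308). Elovl3, an elongase of male mouse liver and brown fat, read 95.3 and 79.2 in the wild-type pair and 1.9 and 3.7, under the floor, in the PEPCK-TAg pair, a fall of at least 8.21-fold. Only its wild-type arrays lay above the filter level, so Elovl3, 1 of the 4 falls, was tested because of the group in which it was high. Wild-type 1 was the highest array for Thrsp, as for Fasn, Elovl6, Srebf1, Scd1, Slc25a1, Mid1ip1 and Elovl3. Wild-type 2 was the highest for Acly, Me1, Elovl5 and Fads1. Acetyl-CoA carboxylase (Acaca, Acacb), Fads2 and Mlxipl could not be matched to a probe set carrying only their symbol.

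Of 12 genes of acyl-CoA activation and triglyceride assembly tested, 1 fell and none rose, with a median of -0.29, where 3.34% of all genes tested were called lower. The phosphatidate phosphatase Lpin1 read 545.9 and 593.8 against 222.1 and 262.5, a difference of -1.24 ± 0.24 SE (adjusted p = 0.0230). Of 12 genes that control lipogenesis tested, limma called none, with a median of -0.28. At an unadjusted limma p under 0.05, 2 were higher and 0 lower, against 1197 and 656 of all 5954 genes tested. Among the 12, Nr1h3, the oxysterol receptor LXR alpha that raises Srebf1, gave -0.57 ± 0.25 SE (adjusted p = 0.179). Insig1, which retains SREBPs in the endoplasmic reticulum, read 1.6 to 8.9 on all arrays, under the floor.

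**Figure D3:**
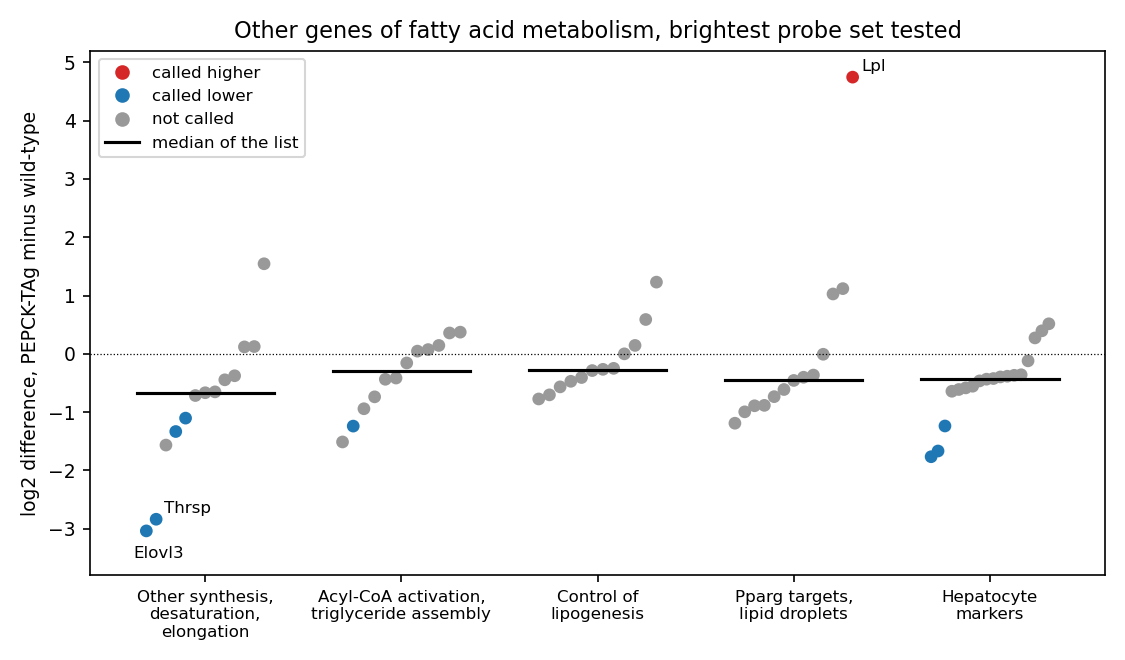
Log2 difference (PEPCK-TAg minus wild-type) of the genes tested in 4 further lists of lipid genes and among hepatocyte markers, 1 dot per gene by its brightest probe set, with the list's median as a bar. Most dots lie below 0, Thrsp and Elovl3 lowest, and Lpl stands alone at 4.75.

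Markers of other cells were higher in the same livers as Scd2 and Pparg. Of 20 macrophage and myeloid markers tested, 14 rose and none fell, with a median of 2.12, and their summed signal was 3373.9 to 4808.0 in wild-type and 15003.2 to 18984.5 in PEPCK-TAg liver. The neutrophil genes S100a9, Ngp and S100a8 led. Of genes known from macrophages, Cd5l (1.97), Lgals3 (4.17), Lyz2 (2.09), Cd14 (1.79) and Ctss (1.35) were called higher, and Csf1r (0.69), Clec4f (0.82), Cd68 (0.70) and Adgre1 (0.56) were not. Of 11 erythroid markers, 8 rose (led by Car2, Hemgn and Rhd), with a median of 2.33 and summed signals of 3292.5 to 3424.9 against 10763.2 to 15101.3. Of 12 genes of dividing cells, 11 rose, with a median of 4.16 and summed signals of 953.4 to 1209.3 against 13176.2 to 13719.8. Lgals3, Hemgn, Rhd and several other myeloid, erythroid and dividing-cell markers called higher also entered the test only through the PEPCK-TAg arrays. The counts and medians of these lists include such genes, whereas the summed signals do not depend on the filter. The part of these marker lists in the rise of Scd2 and Pparg was not tested. Of 3 adipocyte markers tested none passed. At an unadjusted limma p under 0.05, 0 were higher and 1 lower, against 1197 and 656 of all 5954 genes tested. The summed signal of the 7 adipocyte markers on the array was 347.2 to 651.1 against 258.2 to 395.4. The defining adipocyte gene Adipoq read 6.6 to 23.4 on all 4 arrays.

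Of the other lists, 6 lymphocyte markers gave 2 rises (Ccl5 and Ltb) and 1 fall (Zap70), and 11 endothelial markers 1 rise (Icam2). The 8 stellate and fibroblast markers gave 1 rise (Col3a1) and 1 fall (Bgn), and 2 biliary markers 1 rise (Cldn7). On both wild-type arrays Ccl5, Ltb, Icam2 and Cldn7 lay below the filter level, so they were tested because of the group in which they were high. The median was -0.61 for lymphocyte and -0.57 for stellate and fibroblast markers, and 0.37 for endothelial and 0.87 for biliary markers. Lymphocyte sums were 971.2 and 1121.6 in the wild-type pair and 467.4 and 431 in the PEPCK-TAg pair. This fall of the sum rests on Zap70 alone, which read 564.3 and 723.5 against 43.6 and 58. The stellate and fibroblast sums were 4908.9 and 5131.6 against 3191.7 and 3146.2. Endothelial sums overlapped. Biliary sums were 92.6 and 79.5 against 97.6 and 125.8, and this rise rests on Cldn7, which read 4.1 and 2.8 against 41.8 and 83.3. The other biliary marker tested gave -0.73 and was not called, so the biliary median lies between 2 opposed genes. A lower median was not particular to hepatocyte markers (-0.43). Over all genes tested, 9.56% were called higher and 3.34% lower, and the 1 of 11 endothelial markers is close to that share.

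**Figure D4:**
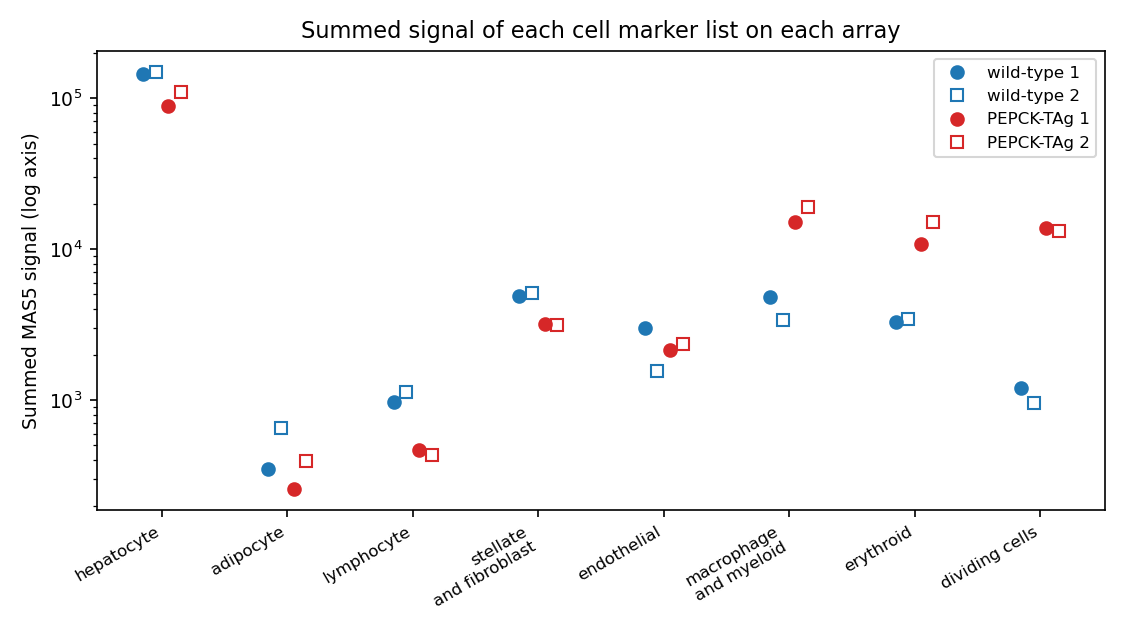
Summed MAS5 signal (log axis) of each marker list on each array, wild-type in blue and PEPCK-TAg in red, over the genes with a probe set of their own. The myeloid, erythroid and dividing-cell sums are higher on both PEPCK-TAg arrays, and the hepatocyte, lymphocyte, and stellate and fibroblast sums are lower. The lower lymphocyte sum rests on Zap70 alone.

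Wild-type 1 and PEPCK-TAg 1 were scanned on 1 day on the same scanner type after the same fluidics station. In this pair alone Scd2 differed by 4.41 and 2.97 on its 2 probe sets, Pparg by 2.06, Elovl5 by -1.49, the brighter Slc25a1 probe set by -1.35, the brighter Elovl6 probe set by -2.61, the bright Scd1 probe sets by -1.84 and -1.10, Fasn by -1.17 and Srebf1 by -0.80. The other pair, wild-type 2 and PEPCK-TAg 2, gave 3.71 and 3.23 for Scd2, 3.78 for Pparg, -1.63 for Elovl5, -1.45 for Slc25a1, -1.85 for Elovl6, -0.96 and -0.88 for Scd1, -0.65 for Fasn and 0.36 for Srebf1. Each pair moved in the same direction for all of these except Srebf1. The groups shared 0 of the 3 chip lots, so lot and group cannot be told apart.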

How the data were processed

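The value table holds 12488 probe sets on 4 arrays, 66 of them controls. The deposited intensity of a probe set is a linear MAS5 signal, per the submitters' processing notes, which name no version. Its 2% trimmed mean was nearly equal on all arrays, so the deposited signals had been scaled. The deposited array run files gave station, scanner and chip lot. Signals were scaled linearly to a common trimmed mean (a change of at most 0.102%), floored at their pooled 20th percentile (10.6) and put on the log2 scale. Testing required a signal above the pooled 40th percentile (41.3) on at least 2 arrays of either group, which left 7877 and set aside 4545. The comparison used limma 3.58.1 under R 4.3.3 (lmFit, eBayes with an intensity trend, two-sided, Benjamini-Hochberg over all probe sets tested, 6.60 degrees of freedom), with no block, and the script was tested on simulated data.

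A gene stands in a list by its brightest probe set tested. Symbols came from the platform annotation (10833 probe sets with 1 symbol, 396 with several, 1193 with none), of which 10817 matched the RefSeq table (assembly GRCm38.p6), and 0 changed. The members, lists and tests were chosen with earlier results of these data known. Named are all members, up to 6 called genes of each lipid list and up to 3 of each marker list with the smallest p, and Acaca, Acacb, Thrsp, Fads1, Fads2, Elovl3, Mlxipl, Insig1, Nr1h3, Cd36, Fabp4, Plin2 and Lpl. The groups share replicate numbers 1 and 2. Deviations of same-numbered arrays correlated at 0.25 across probe sets, and 2 pairs do not settle a pairing. The alternatives were no scaling, quantile normalization, other floors, a pseudocount, no filter or a stricter one, each array left out, the replicate number, station or scanner as a block, a fit with no intensity trend or a robust one, an adjusted p of 0.1, and the mean over a gene's probe sets. The station block in effect sets aside PEPCK-TAg 2 and the scanner block wild-type 2, so they do not stand apart from leaving out those arrays.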

Additional observations from a re-analysis of the deposited data

How the results depend on the processing

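Scd2 and Pparg rose and the 6 probe sets called lower fell in direction under every alternative that tested them. With 3 member probe sets called higher and 6 lower, the counts were 0 and 0 with no filter (3 and 5 at an unadjusted limma p under 0.05) and 0 and 0 with the station as a block (3 and 4 unadjusted, and 0 calls among all probe sets). Fewer falls were called with the floor at the 40th percentile (3) and without the intensity trend (2). With 1 array left out the counts ranged from 2 to 3 higher and from 0 to 7 lower, and the filter then left Pparg untested without either PEPCK-TAg array, as did the filter at the 60th percentile (2 called higher). The median of the 7 enzyme and carrier genes was -0.92 under quantile normalization and -1.20 with the mean over a gene's probe sets, against -1.40, and -1.35 to -1.02 with 1 array left out. The change of Scd2 minus Scd1 ranged from 4.78 to 6.14 and that of Pparg minus Srebf1 from 2.93 to 3.33 with 1 array left out. The latter, 3.14 with no array left out, was 1.88 with the floor at the 40th percentile, 2.67 under quantile normalization and 3.46 with the floor at the 10th percentile. With the replicate number as a block, 3 were called higher and 8 lower, adding Fasn (adjusted p = 0.0201) and the further Slc25a1 probe set (0.00373), and no call was lost. Srebf1, not called, turned to 0.069 under quantile normalization and 0.27 without wild-type 1, with a range of -0.71 to 0.27 over the arrays left out. Me1, not called, turned to 0.032 without wild-type 2 and with the scanner as a block, and ranged from -0.49 to 0.10 (without PEPCK-TAg 1) over the arrays left out. The causes were not tested, other than that fewer arrays or more probe sets entered. With 1 array left out, the lone array of a group is assumed to vary like the other group. The 2 arrays per group limit every value, and signals near the floor limit Pparg, Elovl3 and several of the cell markers.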
